A study of Homo sapiens with 6 samples.

Results

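HT1080 is a human fibrosarcoma cell line, grown from a connective tissue tumour, and the data described here are its 3 wild-type (WT) libraries. They were taken as the 3 columns of a deposited count table and RPKM table that carry the WT labels, out of 6 libraries in the series, and each table was read across 35819 genes. The cells were unmodified by genotype, grew in serum-containing medium with antibiotics and received no treatment that the labels name. Total RNA was depleted of ribosomal RNA and sequenced in pairs from a directional library. Only 1 group of libraries is described, so no comparison between groups and no p-value is given. The labels number the replicates 1 to 3 and do not say that they came from separate cultures, so the spread between them may be technical. The series text names HCT116, a colorectal carcinoma line, once for the WT cells, whereas every WT sample label names HT1080.

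A fibrosarcoma cell keeps features of a fibroblast. It builds its cytoskeleton on vimentin, secretes fibronectin, collagens and laminins, and cuts the matrix with metalloproteases and the plasminogen system. HT1080 is widely used as a model of matrix invasion, and is known for an activated NRAS gene, which feeds the RAF, MEK and ERK kinases, and for an altered IDH1 gene, whose product then makes 2-hydroxyglutarate. NRAS itself is not analysed here, nor are BRAF and MMP1.

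The library totals of estimated counts were 17919106 (WT replicate 1), 20414406 (2) and 20475280 (3), 58.8 M in all (M, 1000000), and the TMM scaling factors lay between 0.990 and 1.01. The counts of all 6 libraries summed to 117 M, beside 550 M reads in all per the labels. Abundance is given as counts per 1000000 of the library total (CPM), which is a share of the counts and is not divided by length. The deposited RPKM values divide by a length that no source used here explains. It works out at 29141 bases for FN1 and 4338 for VIM. For DOCK1 it is 207065 bases, more than the annotated exons hold, and for MT-CO1 1541. Introns thus appear to enter the length, so orders and thresholds by RPKM can place genes with long introns lower. For some comparisons between genes, CPM per kilobase (kb) of annotated exon is therefore given, with the caution that a kb of exon joins all annotated isoforms. Other orders of genes are by CPM alone and can reflect length as well. A gene counts as detected at 1 CPM or more in each WT library. A gene with 0 counts in all 3 libraries could have had up to 0.0510 CPM, the level of 3 counts over the 3 libraries, and this limit covers counting error only.

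The 4 promoter windows below are those of 2 genes at each end of the abundance scale. They are RefSeq windows on GRCh38.p14 from 250 bases before to 50 bases after the first annotated start, printed 5′ to 3′ on the gene's strand with CpG dinucleotides in capitals. FN1 (chr2:215436019-215436318, minus strand) and VIM (chr10:17227991-17228290, plus strand) were the nuclear protein-coding genes of highest CPM. MMP10 (chr11:102780579-102780878, minus strand) and MMP15 (chr16:58025504-58025803, plus strand) are metalloprotease genes with 0 counts in every WT library.
FN1: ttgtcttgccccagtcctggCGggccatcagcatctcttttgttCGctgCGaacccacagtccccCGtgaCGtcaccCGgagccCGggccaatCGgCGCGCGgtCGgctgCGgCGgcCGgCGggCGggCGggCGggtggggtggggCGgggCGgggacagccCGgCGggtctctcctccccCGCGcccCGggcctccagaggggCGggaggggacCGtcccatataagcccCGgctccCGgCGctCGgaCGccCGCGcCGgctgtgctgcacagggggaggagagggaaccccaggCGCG
VIM: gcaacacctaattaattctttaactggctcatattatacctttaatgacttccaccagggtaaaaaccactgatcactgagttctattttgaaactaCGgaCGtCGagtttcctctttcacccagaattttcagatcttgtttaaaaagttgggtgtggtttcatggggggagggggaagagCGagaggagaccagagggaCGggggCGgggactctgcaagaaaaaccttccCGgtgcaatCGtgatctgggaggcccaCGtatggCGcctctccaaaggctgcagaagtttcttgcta
MMP10: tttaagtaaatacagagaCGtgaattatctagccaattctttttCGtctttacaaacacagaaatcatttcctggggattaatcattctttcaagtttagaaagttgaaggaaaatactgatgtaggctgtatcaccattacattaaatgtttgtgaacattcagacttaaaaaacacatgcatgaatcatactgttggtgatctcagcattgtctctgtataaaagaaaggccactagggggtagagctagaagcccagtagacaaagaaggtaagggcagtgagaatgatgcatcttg
MMP15: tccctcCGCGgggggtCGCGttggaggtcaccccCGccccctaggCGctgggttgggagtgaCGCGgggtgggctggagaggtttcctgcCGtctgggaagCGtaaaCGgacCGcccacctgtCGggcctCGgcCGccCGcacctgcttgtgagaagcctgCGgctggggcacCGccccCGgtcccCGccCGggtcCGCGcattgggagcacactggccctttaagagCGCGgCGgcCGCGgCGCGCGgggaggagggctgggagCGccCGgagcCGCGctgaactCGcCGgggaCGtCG

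The 4 windows held 38, 10, 2 and 39 CpG, in the order printed. FN1 and MMP15 are rich in CpG and VIM and MMP10 poor, so these windows do not divide by abundance. The first annotated start need not be the one that these cells use. Over all 13534 protein-coding nuclear genes with a window (80.1% of 16896), the median was 23 CpG, with quartiles of 10 and 32. Over the 8525 detected genes with one (82.8% of 10293) it was 26, with quartiles of 18 and 34. Among detected genes, the median hardly moved with abundance, from 27 CpG at 10 to 100 CPM to 28 at 100 CPM or more. The check was void for genes with 0 counts, where a window was found for 74.8%, for those with counts under 1 CPM (76.7%) and for detected genes under 10 CPM (79.9%). The median over all genes includes these classes and the detected genes too. Its difference from the median of detected genes is therefore open to the same gap, and no conclusion is drawn from it. The letters TATAAA, on either strand, lay in 8.37% of all windows and in that of MMP10. The letters TGANTCA, which read the same on both strands and include the AP-1 site, lay in 5.36% of all windows and in that of MMP10. Among the windows of the marker, protease, matrix and keratin genes, both occurred in those of MMP7 and MMP10, which had 0 counts, of POSTN, a matricellular gene with 0.279, 0.196 and 0.586 CPM, and of SERPINB2, which was detected at 14.5, 18.3 and 24.1 CPM. Both occurred together in 0.791% of all windows. Some genes of these lists, MMP9 among them, had no window, so others with both could have been missed.

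The transcriptome was spread over many genes with a steep top. Of the 35819 genes, 11667 (32.6%) were detected and 15747 (44.0%) had 0 counts in all 3 libraries. The share detected was 60.9% of 16909 protein-coding genes, 16.3% of 4650 long noncoding RNA genes, 4.90% of 9936 pseudogenes and 1.44% of 3601 small RNA genes. The 55 genes of highest CPM held 25% of the counts, 428 held 50%, 1751 held 75% and 4026 held 90%. The 10 most abundant genes took 12.8% ± 0.152 (SD, n = 3) and the 100 most abundant 31.1% ± 0.376.

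**Figure D1:**
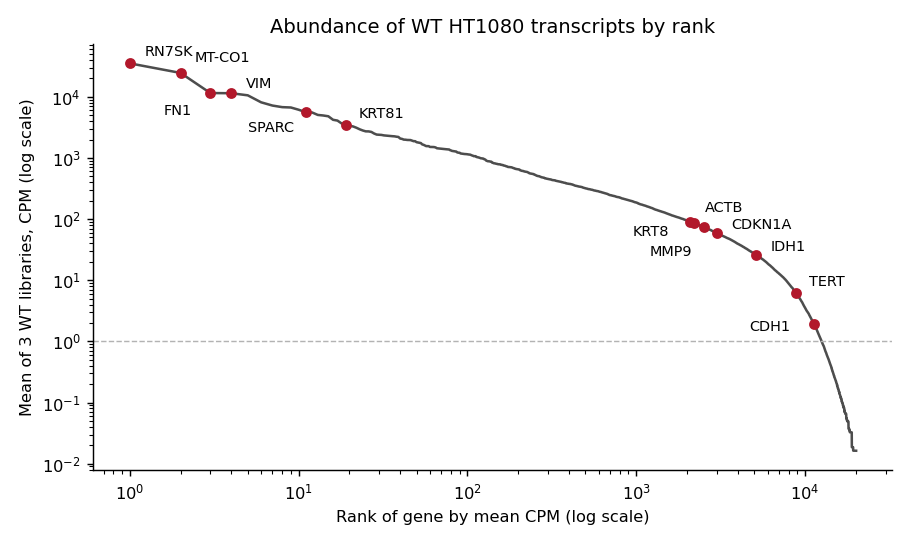
Mean CPM of the 3 WT libraries (vertical axis, log scale) against the rank of the gene (horizontal axis, log scale) for the 20072 genes with a count. Named genes are red points and the dashed line is 1 CPM; FN1 and VIM sit at ranks 3 and 4, KRT8, MMP9 and IDH1 at ranks 2082, 2512 and 5112.

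Protein-coding genes of the nucleus took most of the counts, and mitochondrial messages and 1 small RNA most of the rest. Nuclear protein-coding genes held 84.2%, 84.8% and 85.0% of the counts in WT replicates 1 to 3. The genes encoded by the mitochondrial genome held 8.29%, 8.23% and 8.51%. RN7SK, the scaffold RNA that holds the elongation factor P-TEFb inactive, was the most abundant entry at 3.85%, 3.59% and 3.12% of the counts, with the lowest share in replicate 3. RMRP, the RNA of the RNase MRP ribonucleoprotein, held 0.641%, 0.648% and 0.554%. All long noncoding RNA genes together held 1.19%, 1.11% and 1.21%, and all pseudogenes 1.12%, 1.05% and 1.07%. These shares moved by less than 1 percentage point between libraries. The pseudogene MTATP6P1, a copy of MT-ATP6 on chromosome 1, alone had 1456, 1431 and 1329 CPM. Counts could be divided between such copies and their parent genes, so the border between these classes is uncertain.

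Within the mitochondrial group the 13 messages were all detected, and 9 of them were among the 20 most abundant genes. MT-CO1, the catalytic subunit of cytochrome oxidase, led at 22536, 25042 and 26019.8 CPM. MT-ND3, a small subunit of complex I, was lowest at 353, 252 and 262 CPM. The mitochondrial ribosomal RNAs, which the depletion step is meant to remove, held 0.0313%, 0.00652% and 0.00388%, so replicate 1 lay above the other libraries. MT-RNR1, the small ribosomal RNA, reached 127, 22.1 and 9.08 CPM and MT-RNR2, the large one, 186, 43.1 and 29.7 CPM. A separate 7SK entry also stood higher in replicate 1, at 1243, 556 and 566 CPM. The part of depletion in these differences was not tested.

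The noncoding RNAs differed widely. NEAT1, the scaffold of nuclear paraspeckles, was the most abundant listed long noncoding RNA at 913, 782 and 954 CPM. KCNQ1OT1, an imprinted antisense RNA, followed at 211, 183 and 218 CPM. GAS5, a host gene of small nucleolar RNAs, had 103, 105 and 120.0 CPM. Of 22 measured long noncoding RNAs, 11 (50%, against 16.3% of all long noncoding RNA genes) were detected. Counts were 0 for 2 (9.09%, against 46.6%), SNHG5 and MIR17HG. MALAT1, a nuclear RNA that is usually abundant, was low and uneven at 1.84, 0.686 and 7.47 CPM. SNORD3A, the U3 RNA that guides ribosomal RNA processing, had 462, 507 and 409.6 CPM, whereas the 3 vault RNA genes measured and RNU7-1, the histone-processing RNA, had 0 counts. Several of the abundant small RNAs have near-identical copies, so the division of their counts among entries is uncertain.

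The fibronectin and vimentin genes stood at the top of the nuclear protein-coding genes by CPM. FN1, on chromosome 2 at 215360440 to 215436172 (GRCh38, minus strand), had 10989.7, 11014 and 12540 CPM. VIM, on chromosome 10 at 17228259 to 17237593 (plus strand), had 11109.8, 11933 and 11229.6 CPM. The 2 genes overlapped in CPM, with FN1 highest in replicate 3 and VIM in replicate 2. Per kb of exon VIM was higher, at 2215 CPM per kb against 665 for FN1, and RPL41 stood above both at 2495. By RPKM, VIM led the nuclear protein-coding genes at 2561, 2751 and 2589 RPKM and ranked 15 over all genes, with FN1 at 49. The next nuclear protein-coding genes by RPKM were RPL41, TUBA1B and TPT1, a ribosomal protein, a tubulin and a translationally controlled protein, and 8 of the leading 15 encode ribosomal proteins.

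The other marker genes were detected at far lower levels. KRT8, a keratin of simple epithelia, had 92.0, 84.7 and 95.7 CPM. MMP9, the gelatinase B gene on chromosome 20 at 46008908 to 46016561 (plus strand), had 74.5, 74.6 and 72.5 CPM. IDH1, the cytosolic isocitrate dehydrogenase gene on chromosome 2 at 208236227 to 208266074 (minus strand), had 30.2, 27.1 and 21.1 CPM, lowest in replicate 3. Per kb of exon these were 31.6 CPM for MMP9, 13.2 for KRT8 and 5.54 for IDH1.

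Between genes, these values need care. Of 20 widely used reference genes all were detected, with a median of 86.4 CPM, and the tubulin gene TUBA1B was highest at 4078 CPM. The values over all protein-coding genes were 60.9% detected and a median of 5.64 CPM. The cytoplasmic actins are usually among the strongest messages of cultured cells. ACTB had 94.5, 75 and 88.1 CPM. ACTG1 had 28.5, 27.3 and 16.1 CPM. EEF1A1, an elongation factor, had 68.1, 80.2 and 14.2 CPM, low in replicate 3. Of 85 cytosolic ribosomal protein genes, alternative paralogs included, 84 (98.8%, against the same 60.9%) were detected. Their median was 208 CPM, with quartiles of 64.0 and 783. RPL4 reached 3341 CPM and RPS10 13.5, a ratio of 248, and of the detected genes the paralog RPL39L alone was lower, at 2.03 CPM. RPL3L, a paralog used in striated muscle, had 0 counts. No source used here says what part of each gene's transcripts was counted. A low or 0 count is therefore not evidence of a silent gene, which was not tested.

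**Figure D2:**
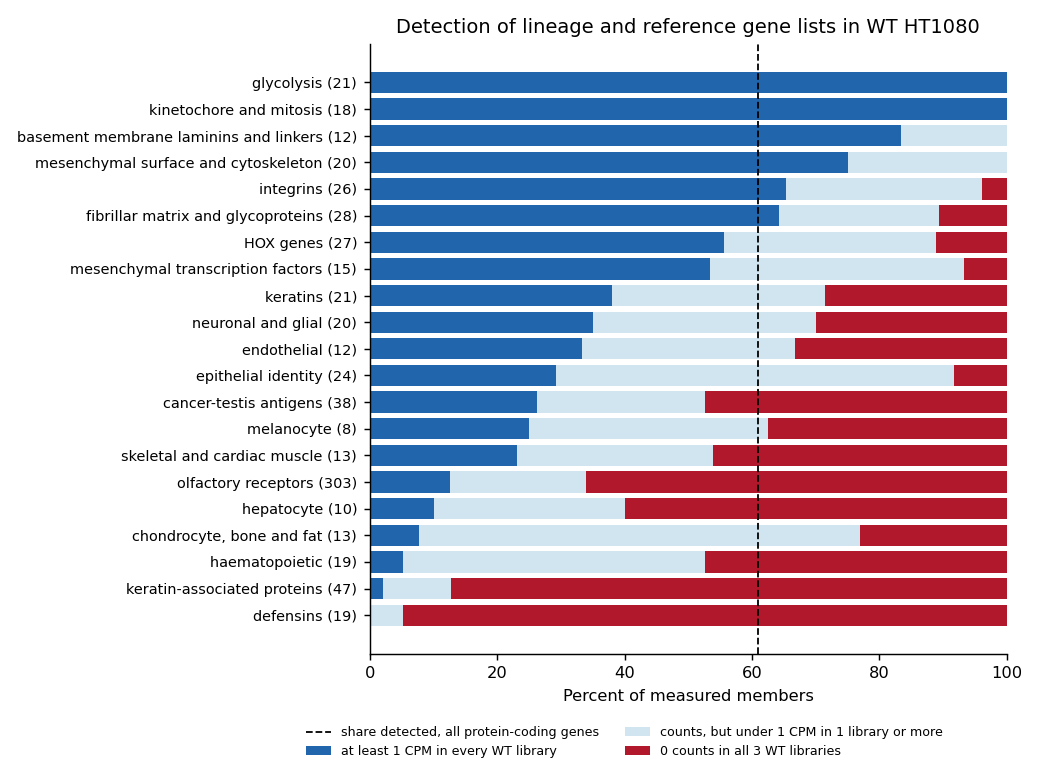
Percent of the measured members of each gene list (horizontal axis; number of members in brackets) that were detected at 1 CPM or more in every WT library (dark blue), had counts below that in at least 1 library (light blue) or had 0 counts in all 3 (red). The dashed line marks the 60.9% detected over all protein-coding genes; glycolysis and mitosis genes reach 100% and defensins 0%.

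The mesenchymal cytoskeleton was abundant, while the surface markers differed widely. Of 20 mesenchymal surface and cytoskeleton genes 15 were detected and none had 0 counts in all libraries, with a median of 49.8 CPM, against 5.64 CPM and 60.9% detected over all protein-coding genes. TPM1, a tropomyosin that lines actin filaments, had 2494, 2356 and 2158 CPM. CD44, the hyaluronan receptor, had 1462, 1269 and 1243 CPM, and CALD1, the actin-binding caldesmon, had 728, 779 and 735 CPM. CDH11, a mesenchymal cadherin, was even at 189.6, 198 and 203 CPM. Unlike CD44, the stromal markers NT5E (CD73) and THY1 (CD90) were near 0. NT5E had 0, 0 and 0.342 CPM and THY1 0.0558, 0 and 0 CPM. CDH2, the N-cadherin gene, split the libraries, with 19.9, 1.08 and 3.96 CPM.

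Of 15 measured transcription factors of the mesenchymal programme, 8 (53.3%) were detected, near the 60.9% over all protein-coding genes. RUNX1, a factor of blood and skeletal development, led at 448, 446 and 464 CPM. ZEB1, a repressor of epithelial genes, had 183, 187 and 196 CPM, and its relative ZEB2 had 129, 126 and 143 CPM. These 3 factors were even across the libraries. TWIST1 was low at 1.79, 1.62 and 2.78 CPM, and SNAI2, another repressor of E-cadherin, had 3.74, 0.490 and 1.17 CPM. MEOX1, a factor of the somites, had 0 counts, and PRRX1, a factor of limb and fibroblast identity, had 0, 0 and 0.391 CPM.

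Matrix genes included some of the strongest messages in the cells, while the fibrillar collagens of types I, III and V stayed under 10 CPM in every library. Of 28 matrix genes 18 (64.3%, near the 60.9% over all protein-coding genes) were detected and 3 had 0 counts, and the group held 2.36% ± 0.0825 of all counts (SD, n = 3). SPARC, a collagen-binding glycoprotein, had 5668, 5667 and 5491 CPM. COL6A3, a chain of type VI collagen, had 5264, 4739 and 4824 CPM. Its partner chain COL6A1 had 8.15, 3.23 and 29 CPM and was uneven. The other partner, COL6A2, had 2.79, 3.48 and 4.54 CPM. COL1A1, the main chain of type I collagen, had 6.53, 5.93 and 5.76 CPM, COL5A1, a chain of type V, 9.10, 9.36 and 9.87 CPM, and COL3A1 0.112, 0 and 0 CPM. COL12A1, a collagen of fibril surfaces, was higher at 212, 189 and 162 CPM. Per kb of exon COL6A3 stood at 252 CPM, COL6A1 at 2.52, COL6A2 at 0.669 and COL1A1 at 0.619. The small proteoglycans LUM and BGN and the matricellular gene CCN1 had 0 counts.

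Laminins were broadly present. Of 12 laminin and linker genes 10 (83.3%) were detected, against 60.9% over all protein-coding genes, and none had 0 counts in all libraries. LAMA5 led at 613, 603 and 649 CPM, followed by LAMA4 at 453, 446 and 463 CPM and LAMB3 at 338, 381 and 332 CPM. LAMA3, whose product pairs with that of LAMB3 in epithelial laminin, was low and uneven at 3.01, 9.31 and 0.0977 CPM. LAMB1 was also uneven, with 5.13, 0.686 and 0.635 CPM.

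Of 20 matrix proteases and inhibitors 13 (65%) were detected and 4 (20%) had 0 counts, near the 60.9% and 16.6% over all protein-coding genes. The inhibitor TIMP2 led by CPM. TIMP2 had 1731, 1746 and 1842 CPM. PLAT, the tissue plasminogen activator, had 873, 861 and 918 CPM. PLAU, the urokinase, had 117, 94.2 and 98.2 CPM, close to its receptor PLAUR at 86.1, 93.3 and 87.8 CPM. MMP2, gelatinase A, had 311, 343 and 345 CPM, and its membrane-bound activator MMP14 had 26.3, 23.9 and 18.5 CPM. Per kb of exon MMP2 stood at 67.5 CPM, MMP9 at 31.6 and MMP14 at 5.13. The stromelysins MMP3 and MMP10, the matrilysin MMP7 and the membrane protease MMP15 had 0 counts in all 3 libraries.

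**Figure D3:**
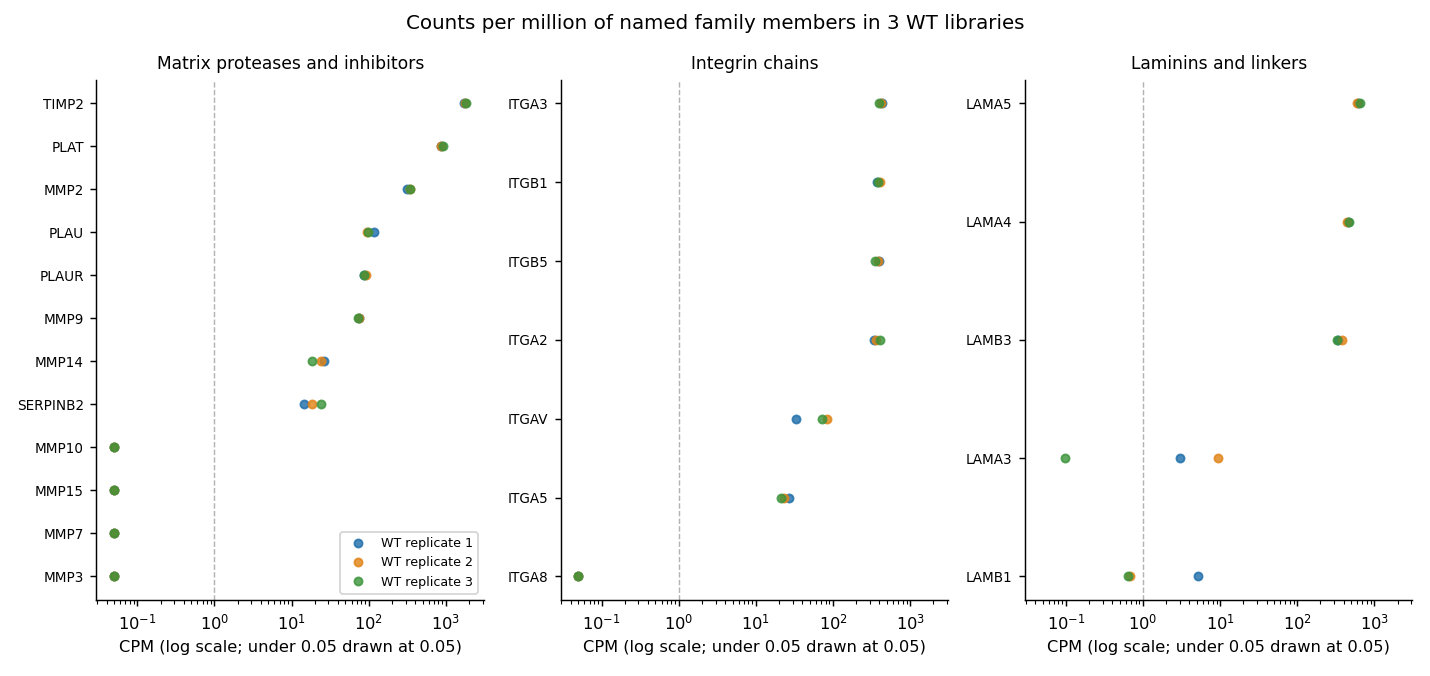
CPM of the matrix proteases and inhibitors, integrin chains and laminins named in the text (horizontal axes, log scale) in WT replicates 1 to 3 (blue, orange, green), with values under 0.05 drawn at 0.05 and a dashed line at 1 CPM. The 3 libraries lie together for most members above 10 CPM, while ITGAV (33.1, 84.7 and 71.0 CPM) and LAMA3 (3.01, 9.31 and 0.0977 CPM) spread.

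Integrins, the receptors that bind this matrix, were detected for 17 of 26 chains (65.4%), near the 60.9% over all protein-coding genes. The 4 with the highest CPM were ITGA3 (428, 414 and 393 CPM), ITGB1 (368, 406 and 378 CPM), ITGB5 (393, 386 and 349.5 CPM) and ITGA2 (337, 361 and 403 CPM), and their ranges overlapped. ITGA3 and ITGA2 are laminin and collagen receptor chains that pair with ITGB1. The fibronectin receptor chain ITGA5 was lower, at 26.7, 23.4 and 21.1 CPM. ITGA8 had 0 counts.

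Keratins, the filament proteins of epithelia and hair, were led by a hair keratin, with the simple keratins far lower. KRT81, a type II keratin of the hair shaft, had 3709.6, 3588 and 3126 CPM and ranked 19 among all genes. Its close paralog KRT86 had 95.3, 95.0 and 93.7 CPM. The related pseudogene KRT87P had 259, 242 and 182 CPM, and counts could be divided between these copies. Per kb of exon KRT81 stood at 1801 CPM, KRT8 at 13.2 and KRT18, the partner of KRT8, at 5.01. Of 21 measured keratins 8 (38.1%) were detected, against 60.9% over all protein-coding genes. Counts were 0 for 6 (28.6%, against 16.6%): KRT1, KRT4, KRT6A, KRT9, KRT13 and KRT20. Of 47 keratin-associated protein genes, which encode other hair proteins, 41 had 0 counts, and only KRTAP2-3 was detected, at 79.9, 77.8 and 69.6 CPM.

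Genes of epithelial junctions and of other lineages were mostly below 1 CPM. Of 24 epithelial genes 7 (29.2%) were detected, against 60.9% over all protein-coding genes. The list had a median of 0.122 CPM. Counts were 0 for 2 members (8.33%, against 16.6% over all protein-coding genes), OVOL1 and ST14. DSP, a desmosomal linker, was highest at 32.4, 35.2 and 44.4 CPM. CDH1, the E-cadherin gene, had 1.56, 2.35 and 1.86 CPM, and EPCAM, an epithelial adhesion gene, had 0, 0.0980 and 0.293 CPM. The epithelial splicing factor ESRP1 had 0.279, 0.147 and 0 CPM. Summed over the 24 genes, the epithelial list held 0.00579% to 0.00736% of the counts.

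Muscle, endothelial, blood, nerve, pigment, liver and skeletal lists each had fewer members detected than the 60.9% over all protein-coding genes. Muscle genes were detected in 3 of 13 cases, with TNNT1, a slow troponin, at 39.8, 34.3 and 32.7 CPM, and PAX3 and PAX7 at 0. Endothelial genes were detected in 4 of 12, with ROBO4 at 55.0, 48.3 and 54.7 CPM, EGFL7 at 48.8, 45.8 and 43.7 CPM and TIE1 at 22.1, 19.2 and 19.9 CPM, while VWF, ERG, EMCN and PLVAP had 0 counts. Of 19 blood cell genes only CD68, a lysosomal protein, was detected, at 14.5, 13.3 and 9.57 CPM, and PTPRC, the CD45 gene, had 0.391, 0.0490 and 0.488 CPM. Neuronal and glial genes were detected in 7 of 20, led by the neurofilament gene NEFL at 31.6, 35.0 and 22.7 CPM, with SOX10, OLIG1 and OLIG2 at 0. Melanocyte genes were detected in 2 of 8, hepatocyte genes in 1 of 10 and chondrocyte, bone and fat genes in 1 of 13, where the members detected were MITF, DCT, SERPINA1 and SPP1. Each of these 4 stayed under 10 CPM in every library.

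The genes around the known driver were present at middling levels. Of 14 RAS genes, RAS regulators and RAF, MEK and ERK kinases, 12 (85.7%) were detected, with a median of 25.2 CPM. Over all protein-coding genes 60.9% were detected, with a median of 5.64 CPM. NF1, a GTPase-activating protein that switches RAS off, was highest at 259, 279.6 and 289.6 CPM. HRAS had 31.5, 23.3 and 19.6 CPM. MAP2K1, the MEK1 kinase, had 24.1, 20.4 and 32.1 CPM, and MAP2K2, the MEK2 kinase, 17.5, 20.4 and 23.5 CPM. Their ranges overlapped.

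Genes known to follow ERK activity were detected in 15 of 18 cases (83.3%, against 60.9% over all protein-coding genes), with a median of 24.9 CPM. PHLDA1 led at 2327, 2326 and 2575 CPM. CCND1, the cyclin D1 gene, had 459, 335 and 252 CPM, highest in replicate 1 and lowest in replicate 3. FOSL1, an AP-1 subunit, had 278, 226 and 196 CPM, and HMGA2, a chromatin protein of fetal tissue, had 281, 219 and 248 CPM. DUSP6, the phosphatase of ERK that is a common readout of the pathway, stood apart at 0, 0.637 and 0 CPM, and DUSP4 had 46.4, 44.6 and 52.7 CPM.

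The enzymes around isocitrate and 2-hydroxyglutarate were nearly all counted, with 9 of 10 (90%) detected, against 60.9% over all protein-coding genes. IDH2, the mitochondrial counterpart of IDH1, had 27.2, 28.0 and 21.1 CPM, which overlapped IDH1. IDH3A, a subunit of the NAD-linked enzyme, was higher at 185, 204 and 189.9 CPM. D2HGDH, which clears the D form of 2-hydroxyglutarate, had 27.7, 26.0 and 22.3 CPM. Per kb of exon IDH3A stood at 28.3 CPM, IDH2 at 9.04 and IDH1 at 5.54.

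Of 11 measured genes listed for the segment of chromosome 9 around CDKN2A, 5 (45.5%) had 0 counts and the other 6 (54.5%) were detected. Over all protein-coding genes these shares were 16.6% and 60.9%. CDKN2A (21967753 to 21995301, GRCh38, minus strand), which encodes the cell-cycle inhibitor p16 and the ARF protein, and CDKN2B (22002903 to 22009363, minus strand), which encodes p15, had 0 counts in all 3 libraries. The antisense gene CDKN2B-AS1, at 21994778 to 22121097 on the other strand, had 2.29, 1.27 and 1.42 CPM. MTAP, a methionine salvage gene at 21802543 to 21937651, had 8.04, 7.84 and 9.72 CPM. The remaining genes at 0 were HACD4, IFNA6 and IFNA13. FOCAD had 53.9, 47.3 and 50.5 CPM and MLLT3 21.9, 20.8 and 22.3 CPM, even across the libraries. No source used here says that strand guided the counting, so reads of CDKN2B-AS1 and of its partners on the opposite strand cannot be told apart, and copy number was not measured.

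Of 19 G1 and S regulators 15 (78.9%) were detected, against 60.9% over all protein-coding genes. The other 4 had counts below the detection level. CDK4 had 177, 174 and 180.3 CPM, and RB1, the retinoblastoma gene, had 11.8, 13.5 and 9.43 CPM. CDK6 was uneven, at 93.8, 13.8 and 50.6 CPM. The inhibitor CDKN1B (p27) was low at 1.51, 0 and 0.147 CPM, as was CDKN2C (p18) at 0.670, 0.147 and 0.147 CPM.

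Of 15 genes of stress response, growth arrest and apoptosis 13 (86.7%) were detected, with a median of 59.4 CPM. The share over all protein-coding genes was 60.9%. GDF15, a secreted stress cytokine, had 1485, 1433 and 1513 CPM, which was 708 CPM per kb of exon. CDKN1A (p21), an inhibitor of cyclin-dependent kinases, had 45.7, 68.3 and 64.2 CPM, lowest in replicate 1. MDM2, a ubiquitin ligase, had 48.4, 57.9 and 73.5 CPM and BAX, a mediator of apoptosis, 239.9, 230.2 and 199 CPM. BTG2, an antiproliferative gene, had 0.167, 0 and 0 CPM.

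Of 13 telomere genes 11 (84.6%) were detected, against 60.9% over all protein-coding genes. TERT, the reverse transcriptase of telomerase, had 5.69, 7.15 and 5.71 CPM and its RNA template TERC 114, 98.0 and 88.7 CPM. ATRX, a chromatin remodeller whose loss marks telomerase-free telomere upkeep, had 289, 308 and 317 CPM. DKC1, a telomerase-associated protein, had 0, 6.96 and 6.45 CPM, with 0 counts in replicate 1 only.

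All 18 measured kinetochore and mitosis genes and all 21 glycolysis genes were detected, against 60.9% over all protein-coding genes. MKI67, the proliferation marker, had 543, 523 and 446 CPM, and CCNB1, cyclin B1, had 171, 183 and 165 CPM. LDHA, a lactate dehydrogenase chain, had 3149, 3394 and 3282 CPM, and its partner LDHB 1905, 1986 and 1986 CPM. Both were even across the libraries. The glucose transporter gene SLC2A1 had 477, 487 and 500.4 CPM. TOP2A, a topoisomerase of dividing cells, was low at 1.79, 2.25 and 1.07 CPM, and ENO1, a glycolytic enzyme that is usually abundant, had 5.41, 6.66 and 5.71 CPM. The ranges within each list were thus wide, from 1.56 to 504 CPM in mitosis and from 4.77 to 3275 CPM in glycolysis.

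Among growth factor receptors, 14 of 29 (48.3%) were detected, against 60.9% over all protein-coding genes. AXL, a receptor for GAS6 found on mesenchymal tumour cells, led at 1294, 1152 and 1038 CPM. FGFR1 was even at 246, 249.5 and 246 CPM, and EPHB2 had 304, 295 and 294 CPM. EGFR had 52.4, 48.1 and 26.8 CPM, lowest in replicate 3, and MET had 22.4, 25.6 and 25.2 CPM. PDGFRA had 0.335, 0.196 and 0.440 CPM, KIT 0, 0 and 0.0977 CPM and RET 0 counts.

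Of 30 secreted growth factors and cytokines 20 (66.7%) were detected and 6 (20%) had 0 counts, near the 60.9% and 16.6% over all protein-coding genes. VEGFA, the angiogenic factor, had 407, 394 and 496 CPM, PDGFC 201, 234 and 232 CPM and NRG1, a ligand of the ERBB receptors, 194, 216 and 218 CPM. IL1B, an inflammatory cytokine, had 75.7, 79.1 and 105 CPM, highest in replicate 3. HGF, the ligand of MET, and IGF1, FGF7, PDGFD, AREG and CXCL1 had 0 counts.

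The libraries of the group lay close together for most genes, and the spread shrank with abundance. Over the 7705 genes that averaged 10 CPM or more, the median SD of log2 CPM (TMM scaling, prior count 2) was 0.129 and the median coefficient of variation was 9.05%. The latter fell from 13.1% in the 2982 genes at 10 to 30 CPM to 3.58% in the 118 genes at 1000 CPM or more. In 3897 genes (50.6%) the libraries lay within 0.25 log2 units, and in 271 (3.52%) they spread over more than 1 log2 unit. The biological coefficient of variation that edgeR estimated over 12757 genes was 19.4%. The SD of log2 differences was 0.295 between replicates 1 and 2, 0.319 between 1 and 3, and 0.268 between 2 and 3. The chi-square per degree of freedom of these pairs against counting noise was 15.1, 20.1 and 14.04, so no pair looked like 1 library deposited 2 times. Estimated counts divided among copies are not independent counts, and the value serves only for that check.

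**Figure D4:**
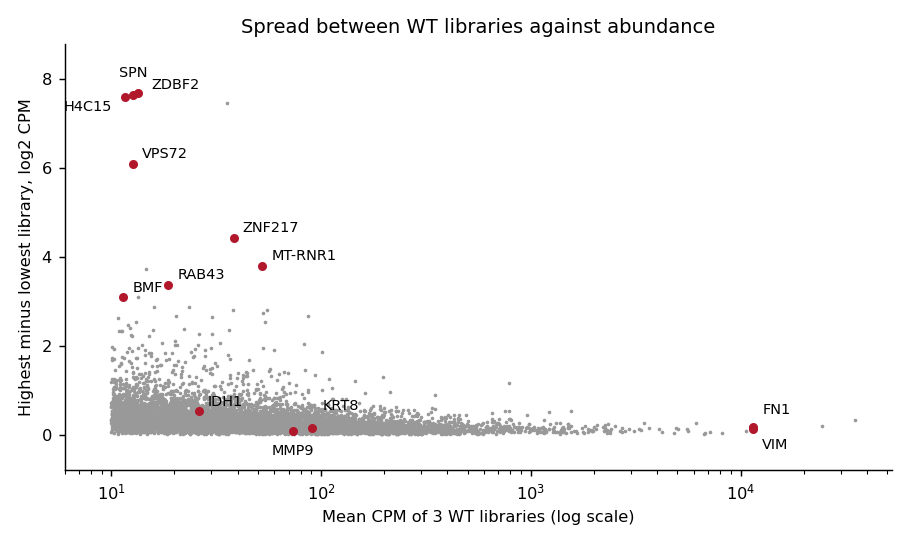
Highest minus lowest of the 3 WT libraries in log2 CPM (vertical axis; TMM scaling, prior count 2) against mean CPM (horizontal axis, log scale) for the 7705 genes that averaged 10 CPM or more. Red points are the marker genes and 8 of the 10 genes of widest spread; ZDBF2, SPN and H4C15 lie above 7 log2 units, while FN1, VIM, MMP9, KRT8 and IDH1 lie under 1.

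The evenest genes were EIF1, a factor of translation initiation, with 1379, 1364 and 1397 CPM, and DOCK1, an activator of RAC, with 287, 284 and 291 CPM. P4HA2, a collagen hydroxylase, FARP1 and NNT-AS1 completed the 5. At the other end, single libraries dropped to 0 or near it. ZDBF2, an imprinted zinc finger gene, had 19, 0 and 21.4 CPM, and SPN, which encodes the leukocyte sialoglycoprotein CD43, had 0, 20.3 and 18.0 CPM. VPS72, a chromatin-complex subunit, had 20.2, 17.6 and 0.195 CPM, and ZNF217, a zinc finger gene, 98.6, 4.41 and 11.8 CPM. RAB43, a small GTPase, had 36.9, 15.7 and 3.52 CPM and BMF, an apoptosis activator, 2.51, 21.9 and 9.77 CPM. Among the 100 genes of widest spread, replicate 1 was farthest from the others in 38, replicate 2 in 29 and replicate 3 in 33.

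For some of these genes a near-identical copy moved the other way. The histone gene H4C15 had 14.7, 0 and 20.02 CPM, while H4C14, which encodes the same histone H4, had 41.4, 63.3 and 41.0 CPM. Their sum was 56.0, 63.3 and 61.0 CPM. Of the twin cancer-testis genes, MAGEA2 had 159, 143 and 229.9 CPM and MAGEA2B 109.6, 111 and 27.6 CPM. Their sum was 269, 254 and 258 CPM. The sums were thus more even than the members, which were chosen after their values were seen. In all, 4 genes had 0 counts in 1 library and 10 CPM or more in the others: H4C15, SPN, ZDBF2 and the noncoding LINC02202.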

How the data were processed

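Total RNA-seq of 3 WT HT1080 libraries was read from tables of estimated counts and RPKM, with 1 value per gene and library. The authors deposited the estimated counts as whole numbers, here taken as rounded. The lengths behind the deposited RPKM values are not given in the sources used here. Salmon 1.10.1 and hg19 are named in the submitters' processing notes, without a role for either. Depth was 17919106 to 20475280 counts per library, and floors of 3 counts cover counting error only. Of 35819 genes named alike in both tables, 35483 (99.1%) matched GENCODE 29 or a gene name table. Another gene, named differently in the tables, was left out. CPM used library totals. The spread used edgeR 4.0.16 (TMM, intercept only, filterByExpr) in R 4.3.3, tested on simulated data. DESeq2 1.42.0 gave alternative size factors. With 1 group there was no test. Members and the 41 gene lists were chosen with earlier results of these data known. The rule named the markers, the top 20 genes by CPM and the top 15 nuclear protein-coding genes by RPKM, the leading and the 0-count members of each list, and the 10 widest and 5 narrowest ranges. Genes outside it (7SK, KRT87P, MTATP6P1 and other list members of low or uneven counts) and the copy sums were chosen after their values were seen. Promoter windows (RefSeq, GRCh38.p14, 300 bases) were matched by symbol or synonym. This matching was revised 2 times after its output was seen, to raise the share of genes with a window. Some genes are not reported here.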

Additional observations from a re-analysis of the deposited data

How the results depend on the processing

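Leaving out each library in turn gave 11885 to 11994 detected genes (10469 to 10522 protein-coding), 16558 to 16727 genes with 0 counts and a biological coefficient of variation of 18.9% to 20.3%. At an RPKM of 1, which changes both the unit and the threshold, 6105 genes were detected, 5344 of them protein-coding, against 11667 and 10306, while 6 other thresholds and scalings, an RPKM of 0.1 among them, gave 11430 to 12748. Without mitochondrial genes, nuclear protein-coding genes held 92.4% of the counts, RMRP 0.670%, long noncoding RNA genes 1.27% and pseudogenes 1.18%, and the 10 and 100 most abundant genes 7.01% and 25.1%. Without RN7SK, nuclear protein-coding genes held 87.8%, mitochondrial genes 8.65%, small RNA genes 0.346% (3.85% with it) and pseudogenes 1.12%, and the 10 and 100 most abundant genes 9.63% and 28.6%. Ranks moved with the length used: FN1 was at 49 by RPKM, 33 per kb of exon and 3 by CPM, and MMP9 at 1542, 997 and 2512. Without a filter on low counts the biological coefficient of variation was 27.8% over 20072 genes. The surplus of promoter CpG in detected genes over all genes was 3 (0.0639 as observed over expected CpG) and again 3 for genes with 1 annotated start, which was chosen after seeing the data. The planned contrast with 0-count genes was replaced by this one because too few of those genes had a window. All genes include the detected ones and those 0-count genes, so the replacement does not avoid the missing windows. No paired analysis was possible because only 1 group of libraries was used. Depth limits what a count of 0 shows to 0.0510 CPM over the 3 libraries.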

Other observations

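Cancer-testis genes, which are normally read mainly in germ cells, were detected in 10 of 38 cases (26.3%), and 18 (47.4%) had 0 counts. Over all protein-coding genes these shares were 60.9% and 16.6%. MAGEA3 had 408, 385 and 402 CPM, PRAME 235, 243 and 245 CPM and MAGEA12 209, 209.7 and 212 CPM, whereas the median of the list was 0.0244 CPM. MAGE genes are close copies of each other, so the division of their counts is uncertain. Among HOX genes, which record position along the body, 15 of 27 (55.6%) were detected, near the 60.9% over all protein-coding genes. The highest were HOXB6 at 31.8, 28.1 and 31.4 CPM and HOXA9 at 27.3, 22.5 and 24.8 CPM. HOXA2, HOXA7 and HOXA11 had 0 counts. Of 21 antigen presentation and innate immunity genes 14 (66.7%) were detected, also near the 60.9%. B2M, the light chain of class I molecules, had 75.5, 106 and 78.6 CPM. Of 14 replication-dependent histone genes 10 (71.4%, against 60.9%) were detected, led by H2AC6 at 67.2, 64.0 and 68.8 CPM.

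Gene families read in special tissues gave the longest stretches without counts. Of 303 olfactory receptor genes 200 (66.0%) had 0 counts and 38 (12.5%) were detected, with OR51B4 highest at 44.8, 51.5 and 49.1 CPM. Over all protein-coding genes these shares were 16.6% and 60.9%. Of 20 bitter taste receptors 7 were detected and 9 had 0 counts. Of 19 defensins 18 had 0 counts and DEFB133 had 0.0558, 0 and 0 CPM. There were 6 runs of at least 10 neighbouring measured protein-coding genes with 0 counts, and the longest held 15 genes, from KRTAP25-1 to KRTAP19-8 on chromosome 21 (30289145 to 31038476, GRCh38). By chromosome, with Y left out, the share of measured protein-coding genes detected ran from 52.0% on X to 66.8% on 16.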
